A study of Mus musculus with 4 samples.

Results

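NR1D1 peaks that were called in PBS-treated cells but not in vasostatin-2-treated cells were examined at the ends of protein-coding genes in primary vascular smooth muscle cells from mouse aorta. A peak was a member of this set when its summit lay within 1 kb of either end of a protein-coding gene and the peak shared not even 1 bp with a peak of the vasostatin-2 list. Of 7377 peaks in the PBS list, 2645 had such a summit, and 1470 of these had no vasostatin-2 counterpart (PBS-only gene-end peaks). The members were thus chosen by 2 measured properties, the position of the summit and the absence of a vasostatin-2 peak. They are compared below with the other 1175 PBS gene-end peaks, which overlapped a vasostatin-2 peak (shared), and with 672 gene-end peaks of the vasostatin-2 list that had no PBS counterpart (vasostatin-2-only).

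The libraries came from wild-type cells grown in medium with 10% fetal bovine serum. They received vasostatin-2, a fragment of the secretory granule protein chromogranin A, for 24 h, or phosphate-buffered saline (PBS) in the same way. Each treatment has 1 NR1D1 library and 1 IgG library, and all 4 carry the same batch label. Values of the IgG libraries are not analysed here, so whether the NR1D1 peaks exceed the IgG signal was not tested. Because 1 library stands for each treatment, no value below has a replicate error, no treatment effect was tested, and a peak that is missing from a list is not shown to be an unbound site. Wilson intervals cover counting error only. The labelled cell type could not be checked by expression in these data. In the PBS list 2 of 20 contractile smooth muscle genes had a gene-end peak, as did 1 of 12 endothelial, 0 of 12 leukocyte and 1 of 12 fibroblast marker genes.

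NR1D1, also called REV-ERB alpha, is a nuclear receptor that represses transcription. It binds a DNA half-site preceded by A and T bases, the RORE, which it shares with the activating ROR receptors, and as a pair it binds a tandem repeat called RevDR2. Through the NCoR corepressor and the deacetylase HDAC3 it holds down clock genes such as Arntl and genes of lipid and glucose metabolism, and in the circadian clock its own level rises and falls each day. CUT&Tag maps a protein by tethering a transposase to its antibody, so that DNA near the protein is released and sequenced.

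The promoter DNA of 6 members shows the letters discussed below. Each line gives the 250 bases before the annotated start of the gene, 5′ to 3′ along the strand of the gene, from RefSeq on build GRCm38.p6. The first was chosen for a RORE inside the peak and the next pair for the receptor half-site AGGTCA inside the peak. The last 3 were chosen for the most fragments at the summit, among windows that overlap the peak and no annotated gene. Taller members named below, such as Ppp1r10, are not among them. Capitals mark the RORE in Slc37a4, the half-site in Ndufs8 and Tesk1, the GC box GGGCGG in Adgrl1 and Eif3j1, and CCAAT in Klf9, each on either strand.
Slc37a4 promoter, chr9:44396696-44396945, plus strand: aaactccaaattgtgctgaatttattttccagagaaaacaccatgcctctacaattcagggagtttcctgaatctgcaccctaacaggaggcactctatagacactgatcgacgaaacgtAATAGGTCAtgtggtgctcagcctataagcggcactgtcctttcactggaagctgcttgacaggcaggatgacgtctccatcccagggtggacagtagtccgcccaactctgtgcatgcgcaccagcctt
Ndufs8 promoter, chr19:3912775-3913024, minus strand: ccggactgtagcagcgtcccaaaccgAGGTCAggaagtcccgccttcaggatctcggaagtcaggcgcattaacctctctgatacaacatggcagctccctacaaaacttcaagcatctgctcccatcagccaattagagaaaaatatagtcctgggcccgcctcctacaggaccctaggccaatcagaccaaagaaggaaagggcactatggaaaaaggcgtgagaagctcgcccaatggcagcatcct
Tesk1 promoter, chr4:43442027-43442276, plus strand: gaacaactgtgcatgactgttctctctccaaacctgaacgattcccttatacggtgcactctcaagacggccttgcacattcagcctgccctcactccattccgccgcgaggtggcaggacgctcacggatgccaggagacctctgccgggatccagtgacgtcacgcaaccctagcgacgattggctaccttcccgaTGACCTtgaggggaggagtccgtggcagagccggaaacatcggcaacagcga
Adgrl1 promoter, chr8:83899848-83900097, plus strand: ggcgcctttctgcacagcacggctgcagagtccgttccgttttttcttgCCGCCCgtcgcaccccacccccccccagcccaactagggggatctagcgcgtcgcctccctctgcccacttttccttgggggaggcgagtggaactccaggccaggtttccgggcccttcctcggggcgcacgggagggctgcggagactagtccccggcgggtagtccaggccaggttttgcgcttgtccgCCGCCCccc
Eif3j1 promoter, chr2:122028330-122028579, plus strand: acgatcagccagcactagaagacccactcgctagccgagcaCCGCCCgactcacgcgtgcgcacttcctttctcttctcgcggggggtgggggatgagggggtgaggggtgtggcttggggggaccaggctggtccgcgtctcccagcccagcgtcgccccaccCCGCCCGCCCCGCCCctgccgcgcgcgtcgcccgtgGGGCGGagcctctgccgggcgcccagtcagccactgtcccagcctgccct
Klf9 promoter, chr19:23140976-23141225, plus strand: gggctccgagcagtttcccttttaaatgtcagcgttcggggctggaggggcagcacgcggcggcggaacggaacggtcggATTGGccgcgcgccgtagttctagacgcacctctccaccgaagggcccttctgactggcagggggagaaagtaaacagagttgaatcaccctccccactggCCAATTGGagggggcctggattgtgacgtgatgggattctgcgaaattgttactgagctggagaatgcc

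Slc37a4 encodes the glucose-6-phosphate transporter of the endoplasmic reticulum. Its peak held 12 fragments at the summit, 95 bp before the start, and the RORE begins 130 bp before the start. Ndufs8, an iron-sulfur subunit of respiratory complex I, had 17 fragments at a summit 266 bp before the start, and its half-site lies 224 bp before the start. Tesk1, a kinase that acts on actin regulators, had 16 fragments at a summit 289 bp inside the gene, with the half-site 52 bp before the start. Adgrl1, an adhesion G protein-coupled receptor, had 24 fragments and 2 GC boxes, 1 of them inside the peak. Eif3j1, a subunit of a translation initiation factor, had 20 fragments and 5 GC box matches, some of which overlap each other. Klf9, a zinc finger transcription factor, had 20 fragments and 3 CCAAT matches, a pair of which overlap.

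PBS-only gene-end peaks were mostly small. The fragments stacked at each summit were recovered from the authors' fold enrichment and p-value. They ranged from 4 to 30 per summit with a median of 8 (quartiles 6 and 10), and 858 members (58.4%) held 4 to 8. Shared gene-end peaks had a median of 13 fragments in the PBS library, with a range of 4 to 208. The authors' fold enrichment over the local background had a median of 5.22 in PBS-only peaks (3.01 to 12.5) and 6.87 in shared peaks. The PBS-only peaks were also narrower, with a median width of 307.5 bp against 441 bp for shared peaks. These values helped to decide which peaks were called in both lists, so they describe the set and are not a finding about it.

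The share of PBS gene-end peaks without a vasostatin-2 counterpart was 55.6% (1470 of 2645, 95% Wilson interval 53.7 to 57.5). Over all PBS peaks it was 64.4%, and over PBS peaks away from coding gene ends 69.3%. The share fell as summits grew taller. With 4 to 5 fragments 216 of 245 gene-end peaks (88.2%) had no counterpart, with 6 to 8 it was 642 of 817 (78.6%), and with 9 to 12 it was 412 of 758 (54.4%). With 13 to 20 fragments 190 of 569 (33.4%, 29.6 to 37.4) had none, and with 21 to 49 it was 10 of 238 (4.20%, 2.30 to 7.56). Away from coding gene ends the shares in the same 5 classes were 92.7%, 76.0%, 54.8%, 33.3% and 12.7%. In the 3 middle classes the intervals of the gene-end shares contain the shares away from gene ends.

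**Figure D1:**
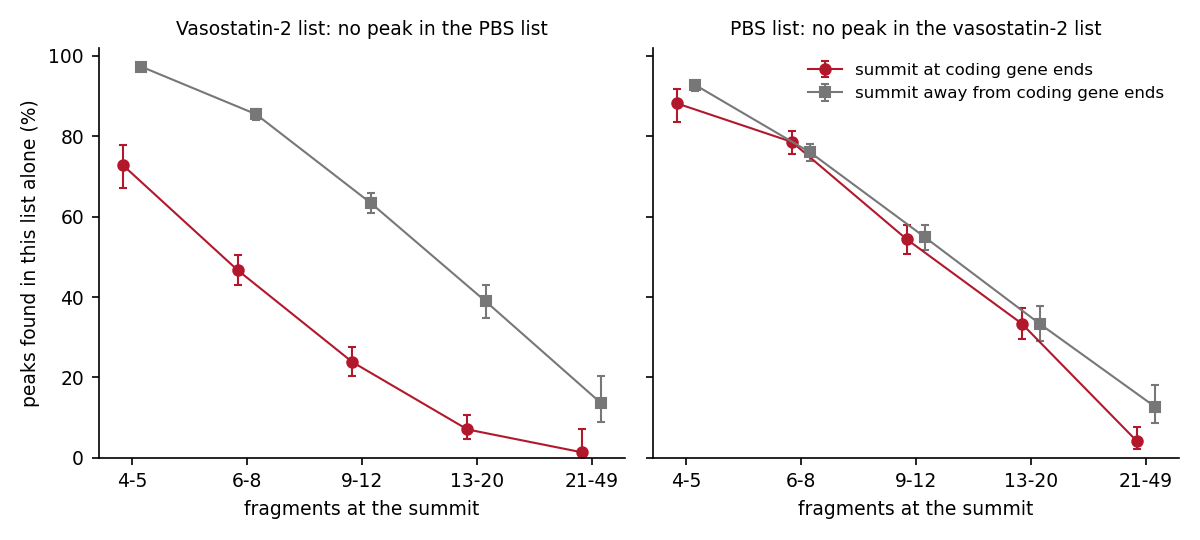
Share of peaks without a counterpart in the other list (vertical axis, %) by fragments at the summit (horizontal axis), for the vasostatin-2 list (left) and the PBS list (right); red circles are peaks with a summit at coding gene ends, grey squares all others, and bars are 95% Wilson intervals. In the PBS list both lines fall together down to 4.20% and 12.7% in the class of 21 to 49 fragments, while in the vasostatin-2 list the gene-end line lies below the other in every class.

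The vasostatin-2 list showed a different split. Of its 1854 gene-end peaks 672 (36.2%, 95% Wilson interval 34.1 to 38.5) had no PBS counterpart, against the 55.6% without a vasostatin-2 counterpart in the PBS list. Its gene-end shares by class, low to high fragments, were 72.9%, 46.7%, 23.8%, 7.06% and 1.35%, and its shares away from gene ends were 97.3%, 85.5%, 63.4%, 38.9% and 13.7%. Classes are not scaled for depth, and the vasostatin-2 library was inferred to be 1.32 times as deep as the PBS library. Where gene-end peaks were called in both, the signal was lower in the vasostatin-2 library. In 351 shared pairs with at least 30 fragments together, the log2 ratio of vasostatin-2 to PBS fragments, after scaling for depth, had a median of -1.06, and 344 pairs had a negative ratio. Over all 1175 shared gene-end peaks the median was -0.85. The fragments that the vasostatin-2 library held at the sites of the PBS-only peaks are not given by a list of peaks.

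The tallest PBS-only gene-end peak, with 30 fragments and 8.58-fold enrichment, lay at chr17:35916173-35916943 (mm10) at the starts of both Ppp1r10, a nuclear regulatory subunit of a protein phosphatase, and Mrps18b, a mitochondrial ribosomal protein. Its summit was 138 bp inside Ppp1r10, and the nearest vasostatin-2 peak was 45464 bp away. Mnt, a MAX-binding repressor that opposes MYC, had 29 fragments and an enrichment of 3.81-fold. The 10 kb around it held 351 fragments, the highest number of any member. A shared peak had its summit 1554 bp from the Mnt summit, and the nearest vasostatin-2 peak was 1003 bp away.

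Tmem134, which encodes a transmembrane protein, had 26 fragments and 7.63-fold enrichment. Adgrl1 had 24 fragments and 10.1-fold enrichment, and the nearest vasostatin-2 peak was 72139 bp away. Scaf1, which encodes a splicing-related protein, had 23 fragments, 4 bp inside its start and 919 bp from a vasostatin-2 peak. Dnpep, an aspartyl aminopeptidase, had 22. Tall members thus lay both far from and close beside vasostatin-2 peaks.

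Immt, which encodes an organizer of mitochondrial cristae, had the highest fold of all members, 12.5-fold with 21 fragments at chr6:71830944-71831797, 399 bp inside the gene. The 10 kb around it held 39 fragments. The predicted gene Gm40363 had a similar fold of 12.4 with 20 fragments. Maff, a small MAF transcription factor, had 21 fragments 944 bp inside the gene. Ehd1, which acts in endocytic recycling, and Sirt4, a mitochondrial sirtuin, had 21 fragments each and lay 783 and 545 bp from a vasostatin-2 peak. Ankrd54, an ankyrin repeat protein, had 20 fragments and 10.3-fold enrichment, with 114842 bp to the nearest vasostatin-2 peak.

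**Figure D2:**
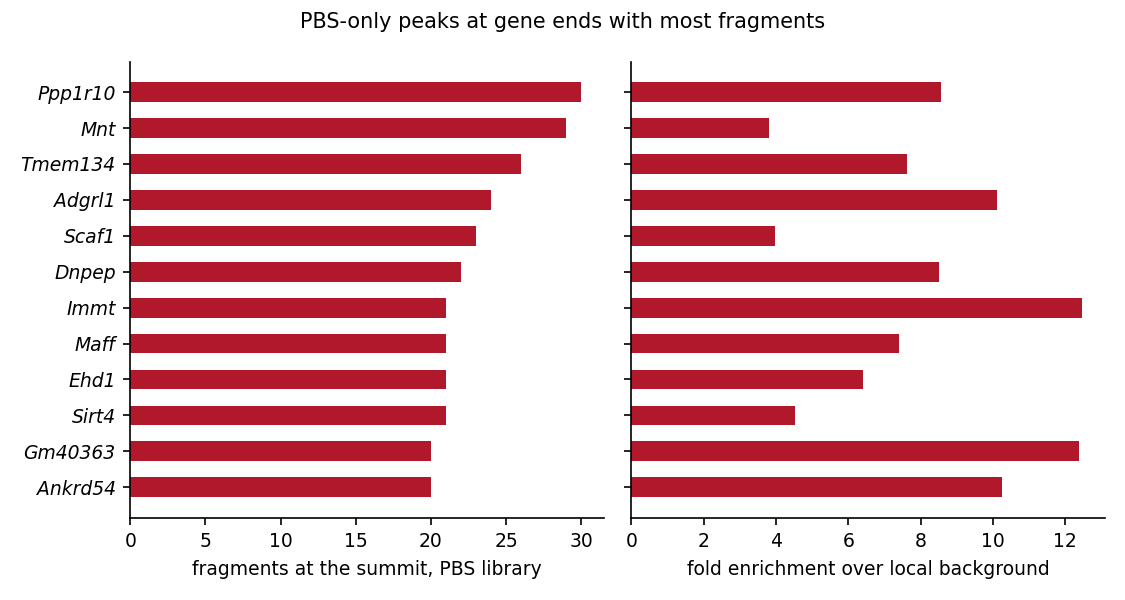
Fragments at the summit in the PBS library (left, horizontal axis) and the authors' fold enrichment over the local background (right, horizontal axis) of the 12 PBS-only gene-end peaks with most fragments, named by the nearest coding gene. Fragments run from 30 at Ppp1r10 to 20 at Gm40363 and Ankrd54, while fold is highest at Immt (12.5) and lowest at Mnt (3.81).

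Most members were far from any vasostatin-2 peak. The median gap was 46233 bp (quartiles 19352 and 114580), 75 members (5.10%) had a vasostatin-2 peak within 1000 bp and 211 (14.4%) within 10000 bp. Members were chosen for lacking an overlapping vasostatin-2 peak, so these gaps describe the set and are not a finding about it. Some tall members flanked a shared peak. Of the 21 members with 20 fragments or more, 6 (28.6%, 95% Wilson interval 13.8 to 49.96) had a shared PBS summit within 2 kb, against 19 of 1449 (1.31%) with fewer. Mnt, described above, was among these 6.

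At the limits of the definition, members just inside were Scamp1, with a summit 991 bp from the gene and 4 fragments, and Tcf19, at 985 bp with 8. The PBS-only peaks nearest to Lmln and Pnrc1 lay just outside at 1004 bp, with 6 and 9 fragments. The members closest to a vasostatin-2 peak were at Csdc2 and Vdac3, 13 bp away, and Sptbn4, 15 bp away, with 8, 7 and 9 fragments. Shared peaks with the shortest overlap were at Mpp2 (6 bp), Ankrd35 and Cacul1 (9 bp each), with 8, 7 and 7 fragments in the PBS library. Members and non-members at the limits therefore held like numbers of fragments.

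PBS-only gene-end peaks sat at gene starts. Where strand was known, the nearest end was a start for 1171 of 1244 members (94.1%, 95% Wilson interval 92.7 to 95.3), for 954 of 989 shared peaks (96.5%, 95.1 to 97.4) and for 476 of 540 vasostatin-2-only peaks (88.1%, 85.1 to 90.6). The table gave no strand for the genes at the other 226 members. The median summit was 24 bp inside the gene for members (quartiles -129.5 and 201), 23.5 bp before the start for shared peaks and 68 bp inside for vasostatin-2-only peaks. Within 250 bp of the start lay 68.2% of the members, 70.6% of the shared and 57.4% of the vasostatin-2-only peaks. By the median position the members lay between the other classes, and by the share within 250 bp of the start near the shared peaks. Peaks of 1 library are not replicates, so these differences were not tested.

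**Figure D3:**
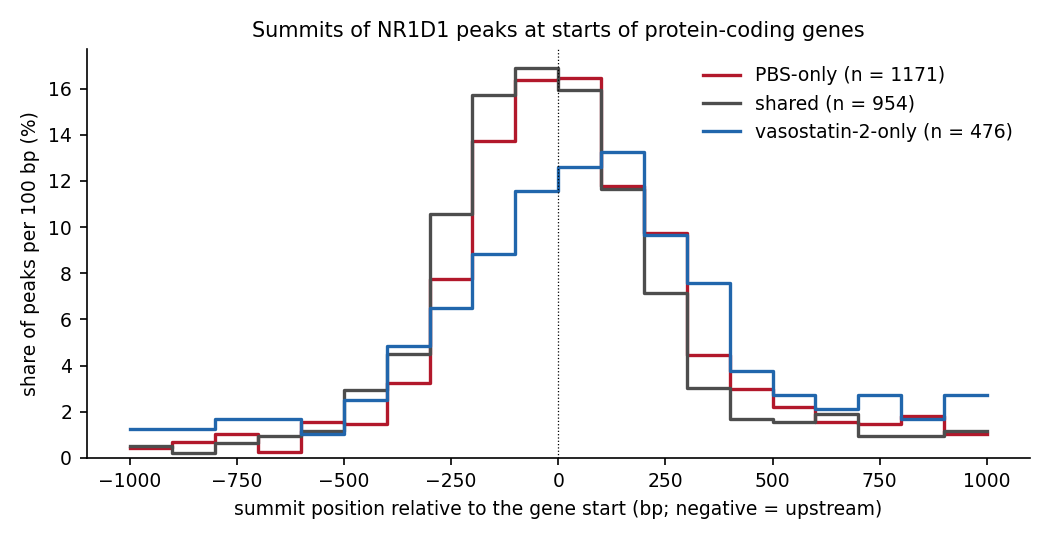
Position of peak summits relative to the nearest gene start (horizontal axis, bp, negative upstream) as the share of peaks per 100 bp (vertical axis, %), for PBS-only (red, 1171 peaks), shared (dark grey, 954) and vasostatin-2-only peaks (blue, 476) at gene starts. All 3 outlines peak near the start, and the blue one is lower there and has longer tails.

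One promoter can serve a pair of genes. A single coding gene had an end within 1 kb of 1194 members (81.2%), 2 genes of 267 (18.2%) and 3 or more of 9. Starts of genes on opposite strands lay within 1 kb of 175 members (11.9%, 95% Wilson interval 10.3 to 13.7), of 166 shared peaks (14.1%, 12.3 to 16.2) and of 57 vasostatin-2-only peaks (8.48%, 6.60 to 10.8). The surroundings of members were less densely covered than those of shared peaks. At the uniform background of the library were 71 members (4.83%) and 8 shared peaks (0.681%). Among the peaks above that floor, the surrounding 10 kb held a median of 33 fragments for members and 51.5 for shared gene-end peaks. PBS-only peaks away from gene ends had a median of 24, with the 22.4% at the floor left out. Fragments at the summit are part of these counts, at a median of 24.1% for members and 26.25% for shared peaks. Summit height helped to decide membership, so these values describe the set and are not a finding about it.

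By gene, 1718 of 21887 protein-coding genes (7.85%) had a PBS-only peak at an end, and 1452 (6.63%) had a shared one. Of the 3134 genes with any PBS gene-end peak, 54.8% had a PBS-only one. Of the 1718 genes 36 (2.10%) also had a shared peak at an end, and 114 (6.64%) had some vasostatin-2 peak at an end, against 2190 of all 21887 coding genes (10.0%). Since the members were chosen for lacking a vasostatin-2 peak, that difference is not a finding. A vasostatin-2 summit lay inside the gene or within 10 kb of it for 490 of the 1718 genes (28.5%, 95% Wilson interval 26.4 to 30.7), beside 27.9% of all coding genes. Vasostatin-2 summits at gene ends count here too, so the choice of members acts on this comparison, and it is not a finding either. By chromosome the share of coding genes with a member ran from 0.781% on Y and 5.07% on X to 11.1% on chromosome 19. The genes had a median length of 20.6 kb, against 20.2 kb for genes with a shared peak and 17.2 kb for all coding genes.

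The promoter windows of the members were rich in G, C and CpG, the composition of CpG island promoters. In the 300 bases around the start (250 before and 50 after) the 1171 gene-start members had a median of 62.7% G and C, against 64.0% for shared, 62.3% for vasostatin-2-only and 56.3% for all 17492 genes with a window. CpG dinucleotides numbered 24 per window in members and 24 in shared windows, 22 in vasostatin-2-only windows and 13 over all genes (medians). The peak itself overlapped this window for 914 of the 1171 members (78.1%) and for 849 of 954 shared peaks (89.0%). Since all 3 gene-start classes were richer in G and C than the average promoter, motif counts are also given below for windows of like composition.

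Over all windows, letters of the receptor's own motifs were found in no larger a share of members than of promoters in general. The half-site AGGTCA on either strand was in 135 member windows (11.5%, 95% Wilson interval 9.82 to 13.5), in 8.81% of shared, 11.3% of vasostatin-2-only and 14.5% of all windows. The RORE, spelled ANTAGGTCA or ANTGGGTCA, was in 13 member windows (1.11%, 0.650 to 1.89), in 2 shared (0.210%), in 4 vasostatin-2-only (0.840%) and in 1.13% of all windows. The first RORE spelling contains the half-site, so those windows count under both. RevDR2 was searched as a pair of AGGTCA in the same direction with 2 bases between them. It was in 0 of 1171 member windows (95% Wilson interval 0 to 0.327%) and in 0 of all 17492. A spelling so strict that no window holds it cannot set members apart from other promoters. Motifs under a peak but outside these windows could not be seen.

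Among windows with at least 60% G and C, 9 of 751 member windows held a RORE (1.20%, 0.632 to 2.26), against 0.623% of all such windows, and 10.9% held a half-site, against 9.31%. The interval of the half-site share (8.88 to 13.4) contains the value over all genes, while that of the RORE share begins just above it and rests on 9 windows. Under 60% G and C the order was the other way round. There 4 of 420 member windows held a RORE (0.952%, 0.371 to 2.42), against 1.45% of all such windows, and 12.6% held a half-site (9.78 to 16.1), against 17.7%. Besides Slc37a4, the RORE members with most fragments were Slc25a1, the mitochondrial citrate carrier, with 13 fragments, Wdsub1 with 10, and Atg4d, an autophagy protease, with 9. Aifm2, the ferroptosis suppressor FSP1, also had 9 fragments and a RORE, as did Bcl2l11 and S1pr2. At Slc25a1 the summit lay 780 bp from the start, outside the window searched.

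Motifs of general promoter factors were found in larger shares of member windows than of all windows, and likewise at the other gene-start peaks. The GC box GGGCGG, bound by SP factors, was in 74.1% of member windows, in 80.0% of shared, 69.3% of vasostatin-2-only and 46.3% of all windows. CCGGAAGT, an ETS site, was in 8.88% of member and 5.28% of all windows. GCATGCGC, which matches NRF1, a regulator of mitochondrial genes, was in 7.69% and 3.61%, and AAGATGGCG, a YY1 site, in 3.84% and 1.92%. The E-box CACGTG, bound by the clock activators, was in 11.3% of member and 7.91% of all windows. CCAAT was in 41.5% and 39.2%, and the TATAAA of TATA boxes was less frequent, in 6.32% and 13.3%. TTATGTAA, a D-box, was in 0.427% and 0.915%.

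The gaps differed between composition classes. In windows with at least 60% G and C the E-box was in 11.5% of member and 11.4% of all windows, the GC box in 84.7% and 82.6%, and the ETS site in 8.12% and 7.28%. NRF1 remained at 7.19% against 5.28%, and YY1 at 4.53% (3.26 to 6.26) against 2.83%. In windows under 60% G and C the gaps were wider than over all windows for the E-box, at 11.0% of member and 5.73% of all windows, the ETS site (10.2% and 4.02%), NRF1 (8.57% and 2.56%) and the GC box (55.2% and 23.5%). YY1 was at 2.62% and 1.34% there. Windows were not matched on composition within these classes. A match describes the letters of a window and shows no binding by the factor.

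**Figure D4:**
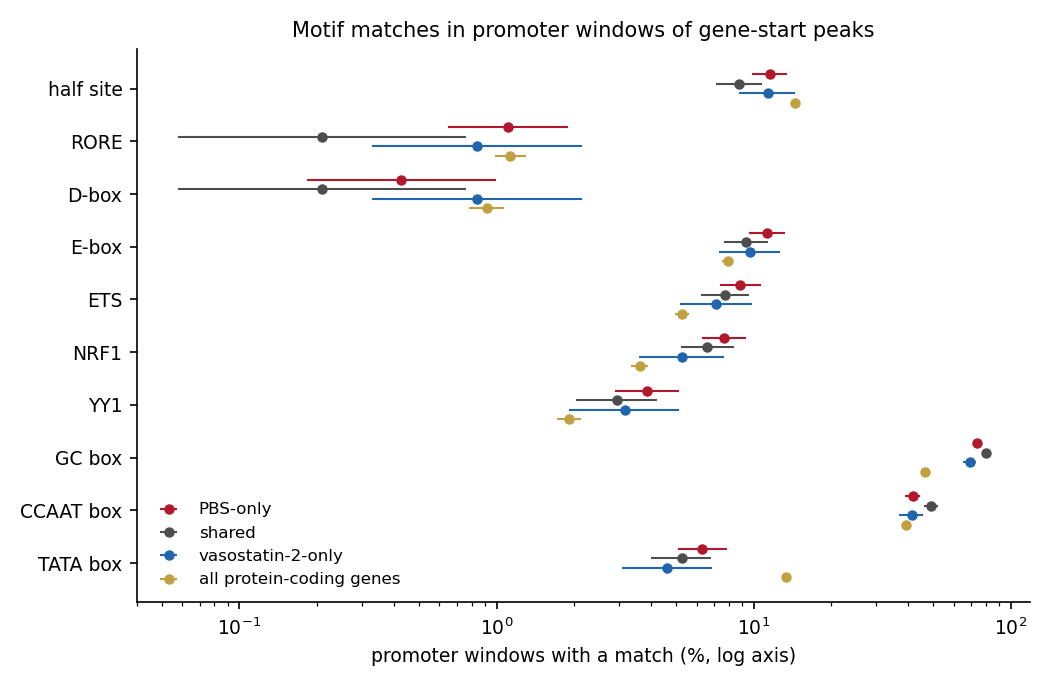
Share of promoter windows with at least 1 match (horizontal axis, %, log scale) for 10 motifs (vertical axis) in windows of PBS-only (red), shared (dark grey) and vasostatin-2-only (blue) gene-start peaks and of all protein-coding genes (gold); bars are 95% Wilson intervals. The half-site and the RORE lie at 11.5% and 1.11% in PBS-only windows and 14.5% and 1.13% over all genes, and the GC box at 74.1% and 46.3%.

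At clock genes most gene-end peaks of the PBS list were shared. Of 24 genes of the core clock and its output, 3 (12.5%) had a PBS-only gene-end peak and 8 (33.3%) a shared one, beside 7.85% and 6.63% of all coding genes. Dbp, a D-box activator driven by the clock, had a PBS-only peak of 17 fragments and 3.67-fold enrichment 906 bp before its start. The summit of this PBS-only peak lay inside Car11, 493 bp from the end of that gene and so nearer to Car11 than to Dbp. That peak lay 341 bp from a vasostatin-2 peak, and Dbp also had a shared peak, with 21 fragments in the vasostatin-2 library and 31 in the PBS library. Cry1, which represses the clock activators, had a PBS-only peak of 9 fragments 276 bp before the start. Csnk1e, the kinase that marks PER proteins for breakdown, had one of 6 fragments 121 bp inside the gene.

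Nr1d1 itself had no PBS-only peak: its shared peak held 20 fragments in the vasostatin-2 library and 34 in the PBS library. Arntl, the textbook target of the receptor, had no gene-end peak in either list. Of 6 genes for the NCoR and HDAC3 corepressor 0 had a PBS-only peak and 1 a shared one.

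More genes of lipid and glucose metabolism, which NR1D1 is known to repress in liver, had a PBS-only than a shared peak. Coding genes as a whole had that order too, with 7.85% PBS-only and 6.63% shared. Of 24 metabolic genes, 5 (20.8%) had a PBS-only peak and 1 a shared one. Of all 3134 coding genes with any PBS gene-end peak, 54.8% had a PBS-only one. Insig1 and Srebf2, which control cholesterol synthesis, had 11 fragments each, 139 and 161 bp before the start. Nr1h3, the oxysterol receptor LXR alpha, had 6 and Pparg, the fat cell regulator, 5. The Nr1h3 summit lay 256 bp from its start and nearer, at 239 bp, to the start of Acp2. With 6 genes in all that have a PBS gene-end peak, this split rests on few genes and few fragments.

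Among 26 autophagy genes 7 (26.9%) had a PBS-only peak and 5 a shared one, beside 7.85% and 6.63% of all coding genes. Of all coding genes with any PBS gene-end peak, 54.8% had a PBS-only one. That share was near for autophagy (58.3%) and chaperones (52.9%). It was 81.8% for ubiquitin-conjugating enzymes and 69.2% for proteasome genes, each on few genes. Atg2a, a lipid transfer protein of the growing autophagosome, had 16 fragments. Rb1cc1, a subunit of the kinase complex that starts autophagy, and Sqstm1, the cargo receptor p62, had 10 each. Of 37 ubiquitin-conjugating enzymes 9 (24.3%) had a PBS-only and 2 a shared peak, with 14 fragments at Ube2f and 12 at both Ube2m and Ube2r2. Of 48 proteasome genes 9 (18.8%) had a PBS-only and 4 a shared peak. Psmd1, a subunit of the regulatory particle, had 13 fragments, Psmb8, an immunoproteasome protease, 12, and Psmb2 8. The Psmb8 summit lay 640 bp past the end of that gene. Among 92 chaperone genes, 18 (19.6%) had a PBS-only and 16 a shared peak, with 18 fragments each at Calr and Canx, which fold glycoproteins in the endoplasmic reticulum, and 16 at Dnaja3.

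Genes of mitochondria and ribosomes lay above the 7.85% of all coding genes with a PBS-only peak; a shared peak was at 6.63% of all coding genes. Of all coding genes with any PBS gene-end peak, 54.8% had a PBS-only one. That share was 70.8% for the respiratory chain and ATP synthase, 63.6% for mitochondrial ribosomal proteins and 44.4% for mitochondrial protein import. Of 85 genes of the respiratory chain and ATP synthase 17 (20%) had a PBS-only and 7 a shared peak. Cox8a, a subunit of cytochrome c oxidase, had 18 fragments, and Ndufb10 and Ndufs8 of complex I had 17 each. Of 78 mitochondrial ribosomal protein genes 14 (17.9%) had a PBS-only peak and 8 a shared one. After Mrps18b, whose peak is also that of Ppp1r10, came Mrpl49 and Mrpl51 with 14 fragments each. Of 25 genes of mitochondrial protein import 4 (16%) had a PBS-only and 5 a shared peak, with 14 fragments at Timm13, 9 at Tomm20 and 7 at Timm21.

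Cytosolic ribosomal protein genes had a PBS-only peak at 16 of 83 (19.3%) and a shared one at 9, beside 7.85% and 6.63% of all coding genes. Among their genes with any PBS gene-end peak 64% had a PBS-only one, against 54.8% over all coding genes. The same share was 55.6% for aminoacyl-tRNA synthetases, 44% for translation factors and 40% for splicing factors. Rpl27 had 19 fragments at a summit 4 bp before the start, Rps18 had 16 and Rpl41 15. Of 70 translation factors 11 (15.7%) had a PBS-only and 14 a shared peak. Eif3j1 had 20 fragments, Eif6 12 and Eif2s3x 11. The Eif6 summit lay 735 bp from an end of that gene and nearer, at 130 bp, to the start of BC029722. Of 36 aminoacyl-tRNA synthetases 5 (13.9%) had a PBS-only and 4 a shared peak, with 12 fragments at Sars2 and 7 each at Mars1 and Vars2. Of 79 splicing factors 12 (15.2%) had a PBS-only and 19 a shared peak. Hnrnpl had 15 fragments, Hnrnpc 13 and Srsf7 12.

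Over all coding genes 7.85% had a PBS-only and 6.63% a shared peak. Of those with any PBS gene-end peak, 54.8% had a PBS-only one. That share was 70% for RNA polymerase subunits, 33.3% for Mediator, 41.7% for Rab GTPases and 77.8% for histones. Of 28 RNA polymerase subunits 7 (25%) had a PBS-only and 3 a shared peak. Among the PBS-only ones were Polr2i with 12 fragments and Polr2a, the catalytic subunit of RNA polymerase II, and Polr3gl with 10 each. Of 30 Mediator genes 1 had a PBS-only peak, Med14 with 7 fragments, and 2 a shared one. Rab GTPases of vesicle traffic had 10 of 59 (16.9%) PBS-only and 14 shared, led by Rab8a with 17 fragments, then Rab1b and Rab5a with 11 each. Histone genes counted 14 of 100 (14%) with a PBS-only peak, but these came from 7 peaks, since histone genes lie close together and some are near-identical copies. H2ac10 and H3c8 had 1 peak in common, of 12 fragments, and H2ac15 had 10.

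Cell cycle genes had 5 of 26 (19.2%) with a PBS-only and 2 with a shared peak, beside 7.85% and 6.63% of all coding genes. Of all coding genes with any PBS gene-end peak, 54.8% had a PBS-only one. That share was 71.4% for cell cycle, 57.1% for TGF-beta and SMAD and 60% for oxidative stress genes, each on few genes. Pcna, the sliding clamp of DNA replication, had 16 fragments 27 bp before its start, Trp53, which encodes p53, 11, and Ccnd3, a cyclin, 10. The Trp53 summit lay 963 bp inside the gene, and Trp53 also had a vasostatin-2 peak at an end. Of 22 TGF-beta and SMAD genes 4 (18.2%) had a PBS-only and 3 a shared peak. Smad7, which inhibits TGF-beta receptors, had 15 fragments, Smad2 8 and Skil 7. Skil also had a vasostatin-2 peak at an end, and a vasostatin-2 peak lay 486 bp from its PBS-only peak. Of 20 genes of oxidative stress and ferroptosis 3 (15%) had a PBS-only and 2 a shared peak, with 11 fragments at Ftl1, the ferritin light chain, and at Sod2, the mitochondrial superoxide dismutase, and 9 at Aifm2.

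Among genes that define smooth muscle, counts were small. Of 20 contractile genes 1 (5%, near the 7.85% of all coding genes) had a PBS-only peak, Smtn, which encodes smoothelin, with 13 fragments 267 bp before the start, and 1 had a shared peak. Of 26 genes of matrix and the synthetic state 3 (11.5%) were PBS-only and 3 shared. Thbs1, a matrix glycoprotein, had 11 fragments, and Klf5, a growth-linked transcription factor, and Timp3, an inhibitor of metalloproteinases, had 6 each. Of 24 inflammatory and NF-kB genes 1 (4.17%) had a PBS-only peak, Rela, with 12 fragments 752 bp from the gene end, and 4 had a shared one, Rela among them. No endothelial or leukocyte marker of 12 each had a PBS-only peak, and of 12 fibroblast markers Pdpn had one of 5 fragments.

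Among large gene families the receptor genes of smell had the lowest shares. C2H2 zinc finger genes had a PBS-only peak at 40 of 461 (8.68%), led by Zfp64 with 13 fragments and Zfp280d and Zfp747 with 12 each. Zfp280d also had a vasostatin-2 peak at an end, and a vasostatin-2 peak lay 214 bp from its PBS-only peak. Solute carriers had one at 28 of 371 (7.55%), led by Slc39a7 with 15, Slc35e1 with 14 and Slc25a1. Olfactory receptors, which are expressed mainly in the nose, had one at 3 of 1106 (0.271%), with 5 fragments each at Olfr1491, Olfr63 and Olfr642, and vomeronasal receptors at 1 of 353, Vmn1r4 with 6. In all, 22 of the 31 lists lay above the 7.85% of all coding genes. Lists were not matched on promoter composition, and its part in these counts was not tested.

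**Figure D5:**
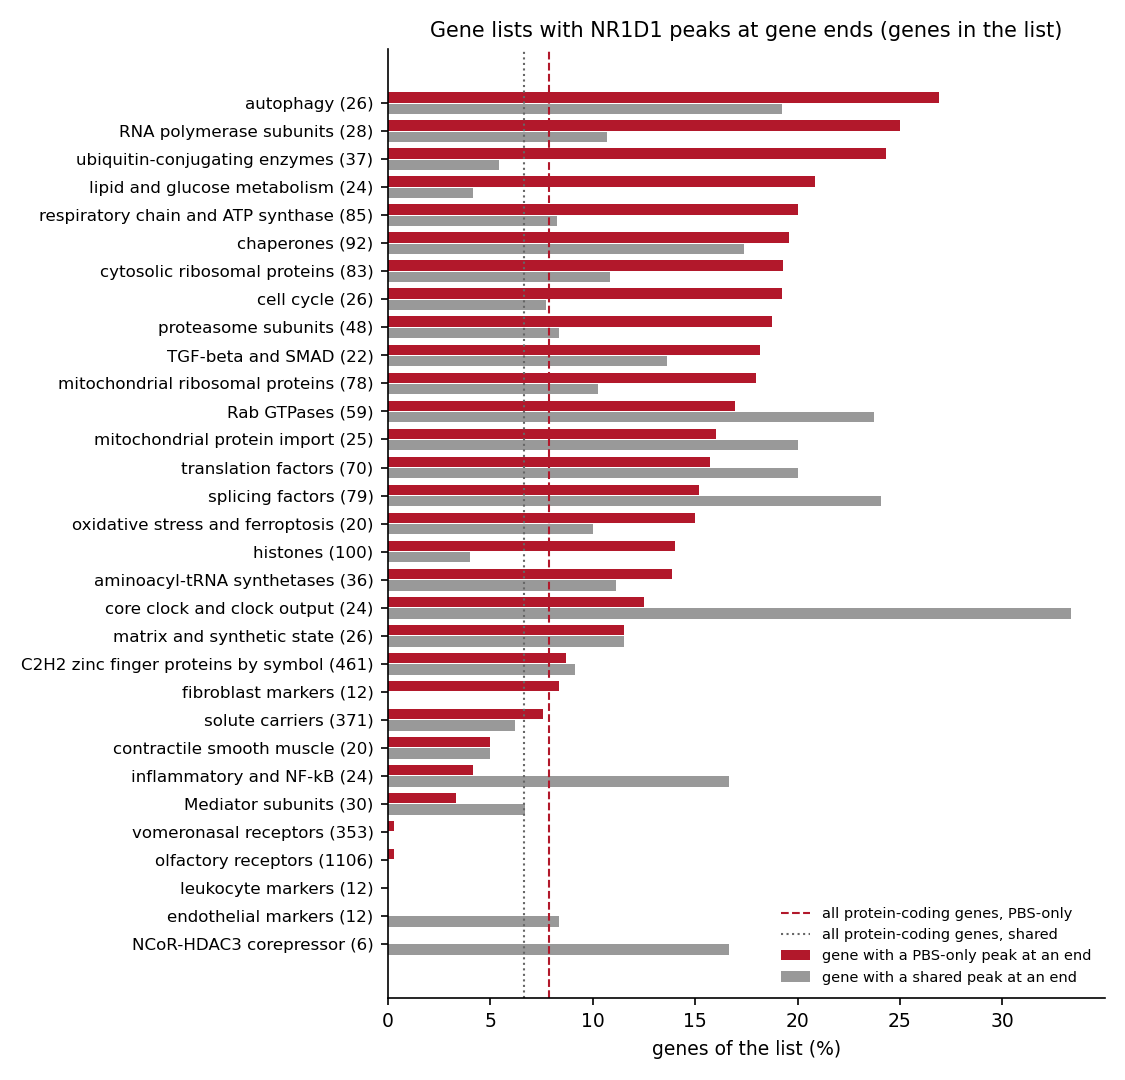
Share of the genes of each list (vertical axis, number of genes in brackets) with a PBS-only (red bars) or shared (grey bars) peak within 1 kb of an end (horizontal axis, %); the dashed and dotted lines are the shares of all protein-coding genes, 7.85% and 6.63%. Autophagy leads the PBS-only shares at 26.9%, core clock genes lead the shared ones at 33.3%, and olfactory receptors lie at 0.271%.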

How the data were processed

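CUT&Tag libraries of NR1D1 from vasostatin-2-treated and PBS-treated primary mouse aortic smooth muscle cells, 1 each, were used as peak lists. The tools named in the submitters' processing notes are Trimmomatic 0.39, BWA 0.7.17 and MACS2 2.2.7.1, with build mm10 and no settings, and each list comes from 1 library. Their 10 columns carry no header and were read in the caller's usual order. Fold, as deposited, was read as the summit plus 1 divided by the background plus 1. At low backgrounds it therefore lies below the plain ratio of summit to background. For peaks at the floor the background is that of the whole library and not of the surroundings. Deposited p-values and q-values are those of the summit, each as -log10, and the deposited score was left aside. Positions are the authors', counted here from 1.

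Fragments at the summit and the background were solved from fold and -log10 p with the caller's Poisson formula, within 0.0005 for 100% of peaks. Whether the caller stacked whole fragments or extended reads is not given in the sources used here. In simulation 100% of 3000 fragment numbers came back. Background above its floor gave the fragments in the surrounding 10 kb, a window assumed from the caller's usual setting, and floor and step gave a relative depth of 1.32. The total depth of each library is unknown. The lowest -log10 q was 1.31 in the vasostatin-2 list and 1.32 in the PBS list, and the lowest summit held 4 fragments in both.

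Genes came from RefSeq GRCm38.p6, the assembly of mm10, with 21887 protein-coding genes on chromosomes 1 to 19, X and Y. Strand and promoter windows of 300 bases came from RefSeq for 17492 of them; the other 4395 have neither here, and they are left out of start shares and motif counts. A gene counted when a summit lay within 1 kb of either end, so 1 peak could count for several genes. All 3395 gene entries of the 31 lists were found. Shares carry 95% Wilson intervals. No test was made, since both lists chose the members and each treatment has 1 library.

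Named genes were the 12 members with most fragments, up to 3 genes per list with most fragments, every clock gene with a member, Nr1d1 and Arntl, the members at the limits and the sequences shown. Some genes that the rule selects are not reported here. Members and lists were chosen with earlier results of these data known. Promoter sequences were restricted, after seeing them, to windows that overlap the peak and no annotated gene. Alternatives changed the overlap rule, the distance to gene ends, the q threshold and the fragment minimum. Python 3.11.15, pandas 2.3.3, scipy 1.17.1 and bedtools 2.31.1 were used.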

Additional observations from a re-analysis of the deposited data

How the results depend on the processing

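Of 51 recomputed main values 15 moved. The other 36 stayed within counting error or, for the number of members, within 1.5 times the main count. The number of members ranged from 981 to 1828 under the overlap, distance and q alternatives and was 807 with at least 8 fragments, against 1470. The median of 8 fragments became 9 with -log10 q of at least 3 in the PBS list or in both lists and 10 with at least 8 fragments. The share of PBS gene-end peaks without a counterpart (55.6%) was 67.1% with reciprocal overlap of 50%, 53.5% when a vasostatin-2 peak within 500 bp counted as shared and 63.2% when summits had to lie within 200 bp. It was 47.8% with -log10 q of at least 3 in the PBS list, 57.9% with that in both lists and 43.5% with at least 8 fragments. The share at gene starts (94.1%) was 95.9%, 96.1% and 96.4% under the last 3 settings, 96.7% with a 500 bp window and 88.5% with 3 kb. The half-site and RORE shares kept within counting error under every alternative run; of 81 recomputed shares of other motifs 5 moved, for the D-box, GC box and TATA box. The windows of at least 60% G and C were added after seeing the data, as was a filter for members that would pass in the vasostatin-2 list at equal signal per unit of depth. That filter keeps all 1470 by construction, since the vasostatin-2 list has the greater depth and the lower limit, and it shows nothing. Summits are low, with 216 members at 4 to 5 fragments. No paired analysis was possible because each treatment has 1 NR1D1 library and no result comes from a test.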
